A study of Mus musculus with 25 samples.

Results

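10 genes of the antioxidant response and of glutathione metabolism were followed through mouse skin stem cells in unwounded skin, after wounding and in grafted tumours. They were *Gsta4*, *Gstm1*, *Mgst1*, *Glrx*, *Nqo1*, *Hmox1*, *Gclc*, *Gclm*, *Txnrd1* and *Srxn1*, chosen by name, and all 10 were rows of a count table of 24061 gene symbols with 21 RNA-seq libraries. All 10 passed the filter on low counts in every fit. The largest difference was that of *Gsta4*, which stood below 1 CPM (counts scaled to library size) in unwounded stem cells of one library set, between 346 and 397 CPM in their wounded counterparts and between 221 and 2828 CPM in tumour cells.

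Nrf2, encoded by *Nfe2l2*, is a transcription factor that is held in the cytoplasm and targeted for degradation by Keap1. Oxidants and electrophiles modify Keap1, and Nrf2 then enters the nucleus, pairs with small Maf proteins and binds antioxidant response elements near genes of detoxification and redox control. Several of its targets make glutathione, attach it to reactive compounds, or use it or thioredoxin to repair oxidised proteins. Heme oxygenase and the glutathione transferases also answer to other factors, and keratinocytes in wounds are a known site of Nrf2 activity.

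All RNA libraries came from female mice. In the set that the labels call CL (strain B6, postnatal day 60), 2 libraries came from wounded skin of the hair follicle stem cell (HFSC) lineage, sorted as integrin alpha 6 high cells with the YFP of Sox9CreER;R26-YFP, against 2 of unwounded HFSC (CD34 positive, Sca1 negative). A further 2 came from wounded epidermal stem cells (EpdSC), sorted as the YFP-negative cells of the same Cre line, against 2 of unwounded EpdSC (CD34 negative, Sca1 positive). The wounded cells were therefore taken by another gate than the unwounded ones, and gate and wound cannot be told apart. The set BK (B6, day 60) held 1 library of wounded EpdSC, sorted on integrin alpha 6 without a YFP gate, and 2 each of HFSC and EpdSC. The set DS (B6) held GFP-positive cells of grafted tumours, sorted by integrin alpha 6 into a high and a low library in tumours of the genotypes TbrKO, HRas TbrKO and HRas (6 libraries). The same set held Tbr HFSC and Tbr EpdSC from day 60 skin, with 1 library of each. The gene that TbrKO removes, the genotype of the Tbr skin and whether libraries came from separate animals are not given in the labels. The p-values therefore measure the spread between these libraries, which may be technical. Open chromatin was measured by ATAC-seq in 4 pooled samples of CD1/B6 mixed mice, of wounded stem cells, of HRas tumour-initiating cells, and of HFSC and EpdSC at day 50.

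The libraries held 14216472 to 36425082 counts each. The 8 keratinocyte markers were all above 0 in all 21 libraries. The pair of BK EpdSC libraries stood furthest apart, with an SD of 0.796 of the log2 difference over 11255 genes, against 0.248 to 0.683 in the 5 other pairs. The unwounded CL libraries were rich in 13 immediate early and heat shock genes that rise when tissue is dissociated (26670 to 50970 CPM in sum), against 859 to 1526 CPM in the wounded CL libraries, and the part of this difference in the results for wounded cells was not tested. Levels are CPM after TMM scaling over all 21 libraries, and log2 fold changes are given with their standard error and a Benjamini-Hochberg adjusted p of edgeR's quasi-likelihood test. A gene is called where that p is under 0.05. The keratinocyte markers were not constant. Of the 8, 1 was called higher and 4 lower in the wounded HFSC lineage of CL (median -0.44 on the log2 scale), against 46.1% of all genes called. In wounded EpdSC of CL 2 were higher and 5 lower (median -1.53), against 58.4%. Their sum went the other way, with 71210 and 61990 CPM in the wounded HFSC lineage, against 35480 and 44980 CPM in HFSC. In wounded EpdSC the sum was 149100 and 93940 CPM, against 64020 and 59020 CPM in EpdSC. The part of the keratinocyte markers in the results was not tested. In sorted bulk samples, fewer cells of a type and less RNA per cell cannot be told apart.

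**Figure D1:**
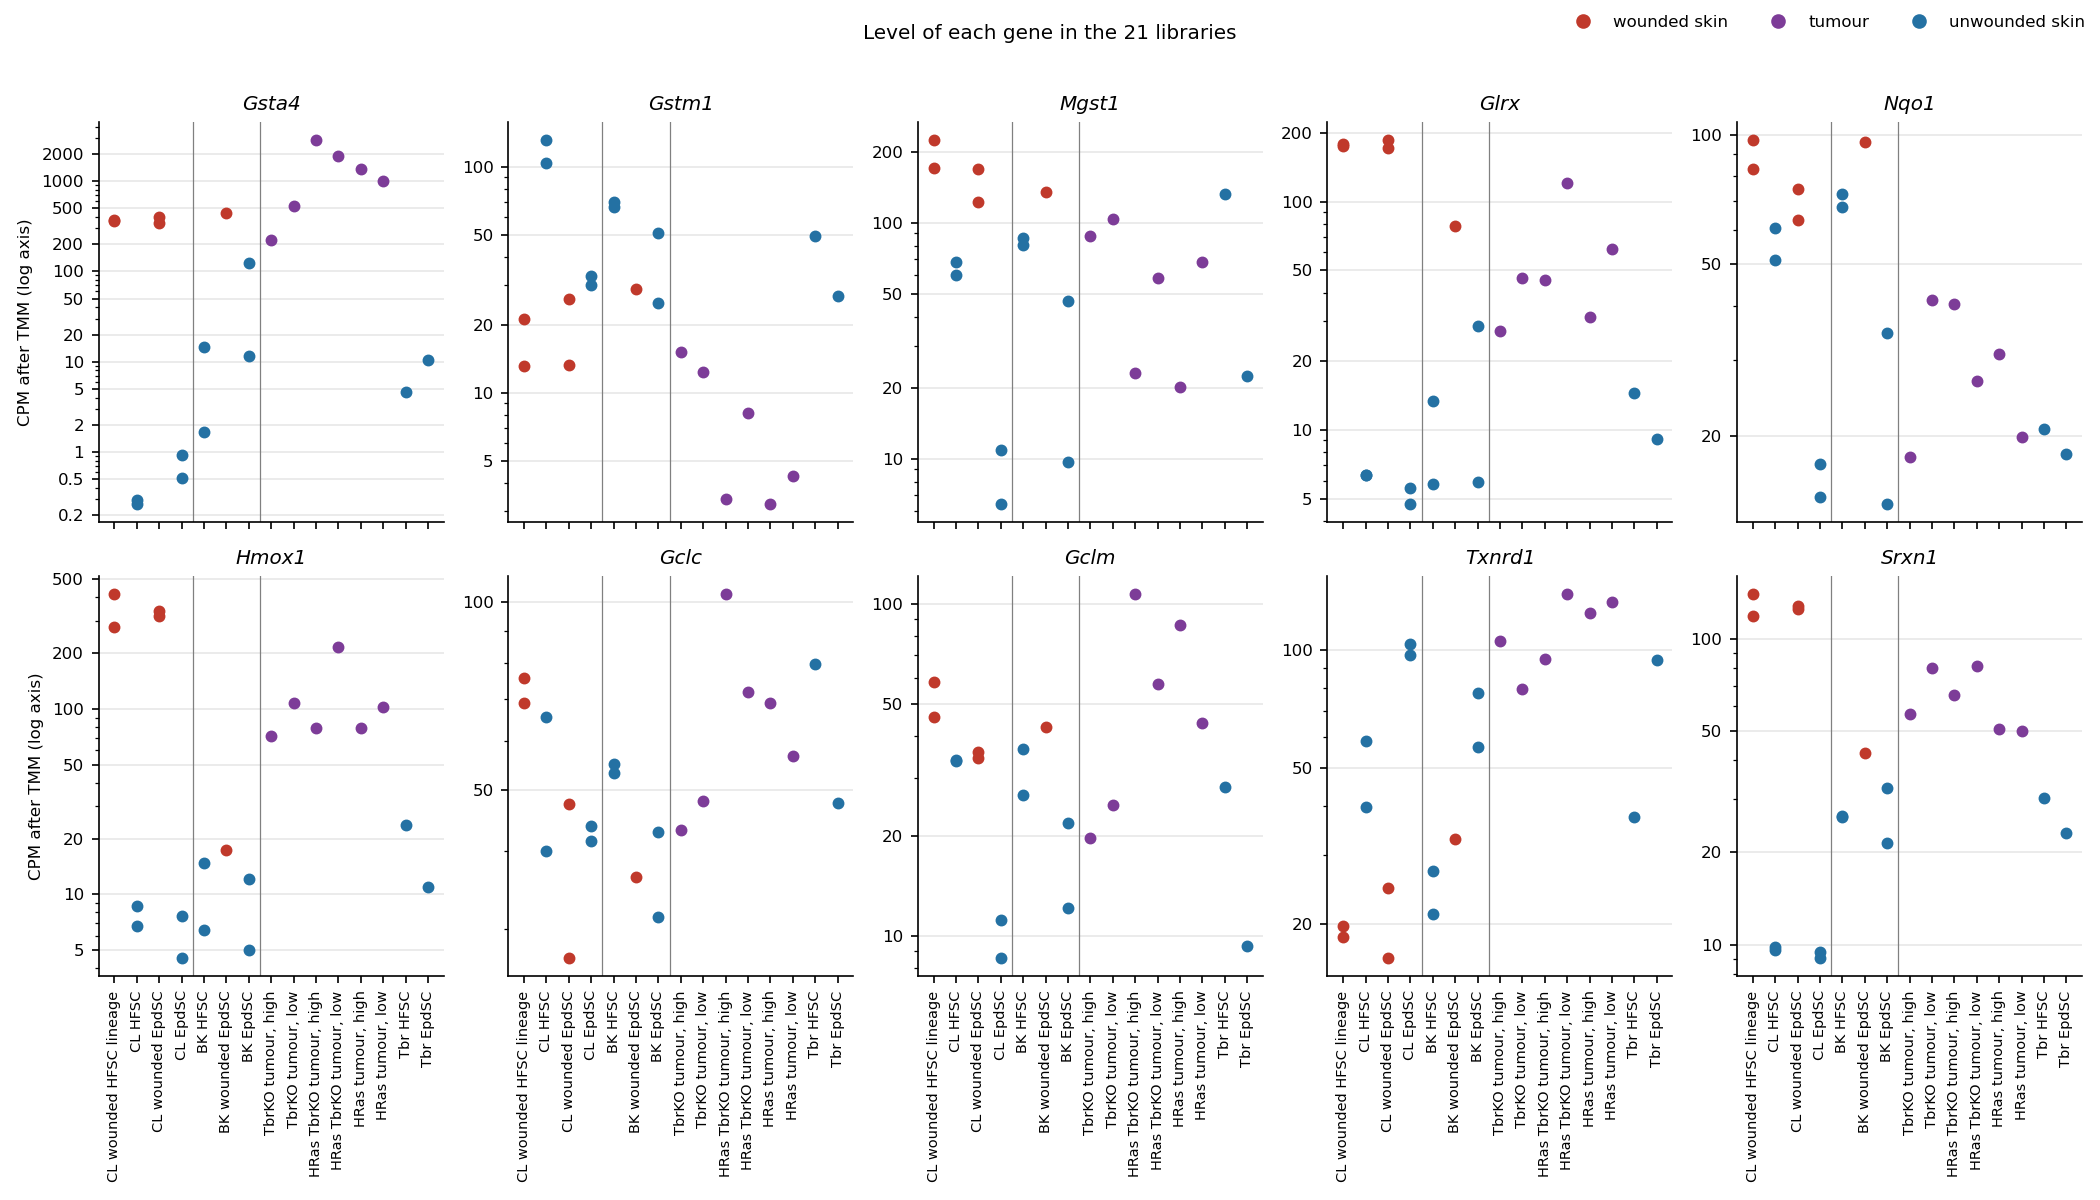
Each point is 1 library, with CPM after TMM on a log axis and the groups along the x axis. Red points are wounded skin, purple points tumour cells of high or low integrin alpha 6, and blue points unwounded skin. *Gsta4*, *Glrx*, *Hmox1* and *Srxn1* are high in the CL wounded libraries and in tumours, and *Gstm1* runs the other way.

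Promoters were at hand for 7 of the 10 genes, all but *Gsta4*, *Hmox1* and *Gclc*. The 250 bases before each start were searched on both strands for the core of the antioxidant response element, TGACNNNGC, and for the AP-1 site, TGACTCA, to which Fos and Jun proteins bind. The motifs begin with the same 4 letters and can overlap. The response element core was found in 3 of the 12 windows of the 7 genes, against 10.2% of 32851 windows, and the AP-1 site in 3, against 4.46%, where windows of 1 gene with several starts can overlap. The 2 *Glrx* windows overlap and hold the same AP-1 match. By gene, the core was in 3 of the 7 and the AP-1 site in 2, against 3112 and 1395 of 27025 genes. The windows below are from RefSeq (build GRCm38.p6, which is mm10), are shown because they hold a match, run 5′ to 3′ along the gene's strand, and have the match in capitals. The match is the core on the opposite strand at -134 to -126 before the start of *Gclm* (chr3:122245307-122245556, plus strand), at -56 to -48 in *Mgst1* (first start, chr6:138140277-138140526, plus strand) and at -92 to -84 in *Txnrd1* (second start, chr10:82858956-82859205, plus strand). It is the AP-1 site at -45 to -39 and -102 to -96 on the opposite strand in *Srxn1* (chr2:152105274-152105523, plus strand) and at -98 to -92 on the gene's own strand in *Glrx* (chr13:75839635-75839884, plus strand).
Gclm: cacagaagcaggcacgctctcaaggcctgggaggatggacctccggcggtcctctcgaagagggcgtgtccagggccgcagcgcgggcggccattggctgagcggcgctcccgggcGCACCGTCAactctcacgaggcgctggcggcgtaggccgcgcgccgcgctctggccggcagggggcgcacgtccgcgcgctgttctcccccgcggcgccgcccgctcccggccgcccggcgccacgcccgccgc
Mgst1: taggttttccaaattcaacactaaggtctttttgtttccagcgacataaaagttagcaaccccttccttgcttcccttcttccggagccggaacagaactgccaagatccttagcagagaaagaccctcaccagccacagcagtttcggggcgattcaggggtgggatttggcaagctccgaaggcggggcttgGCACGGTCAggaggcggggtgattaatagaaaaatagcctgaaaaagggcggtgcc
Txnrd1: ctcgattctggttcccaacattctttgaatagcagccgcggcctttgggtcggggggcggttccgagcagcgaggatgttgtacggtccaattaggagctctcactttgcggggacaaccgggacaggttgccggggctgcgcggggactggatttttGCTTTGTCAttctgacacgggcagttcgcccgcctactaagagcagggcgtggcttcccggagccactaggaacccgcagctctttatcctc
Srxn1: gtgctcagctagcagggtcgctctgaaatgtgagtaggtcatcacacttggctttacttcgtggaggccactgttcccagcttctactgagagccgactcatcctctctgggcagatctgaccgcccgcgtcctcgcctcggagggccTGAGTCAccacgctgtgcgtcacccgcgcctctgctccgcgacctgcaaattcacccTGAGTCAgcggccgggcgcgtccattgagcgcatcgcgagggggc
Glrx: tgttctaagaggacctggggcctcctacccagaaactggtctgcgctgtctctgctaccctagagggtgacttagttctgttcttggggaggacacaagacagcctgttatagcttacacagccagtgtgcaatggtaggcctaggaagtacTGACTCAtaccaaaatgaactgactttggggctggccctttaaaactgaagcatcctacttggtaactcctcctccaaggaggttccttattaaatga
A match is a description of letters, not a bound site.

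In the wounded HFSC lineage of CL, 7 of the 10 genes rose and 2 fell relative to HFSC, against 46.1% of 14831 genes called in either direction (21.4% higher and 24.7% lower). The median log2 fold change was 1.14 over the 10 genes and -0.10 over all genes tested. *Gsta4*, *Hmox1*, *Glrx* and *Srxn1* rose by more than 8-fold, *Mgst1*, *Nqo1* and *Gclm* by less, *Gstm1* and *Txnrd1* fell, and *Gclc* did not pass.

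*Gsta4* encodes a cytosolic glutathione transferase that clears 4-hydroxynonenal, a product of lipid peroxidation. It had 374 and 361 CPM in the wounded HFSC lineage, against 0.296 and 0.269 CPM in HFSC, where the libraries held 10 and 7 counts. In wounded EpdSC it had 346 and 397 CPM, against 0.922 and 0.514 CPM in EpdSC (22 and 8 counts). No wounded library overlapped an unwounded one, and the log2 fold changes were 10.30 ± 0.34 in the HFSC lineage (edgeR, adjusted p = 9.86e-06) and 8.94 ± 0.32 in EpdSC (edgeR, adjusted p = 1.19e-05).

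*Hmox1*, heme oxygenase 1, breaks down heme. It had 416 and 278 CPM in the wounded HFSC lineage, against 8.67 and 6.77 CPM in HFSC. In wounded EpdSC it had 319 and 337 CPM, against 7.67 and 4.56 CPM in EpdSC. The log2 fold changes were 5.48 ± 0.35 in the HFSC lineage (edgeR, adjusted p = 4.18e-05) and 5.72 ± 0.35 in EpdSC (edgeR, adjusted p = 3.07e-05), with no overlap. Macrophages also make this enzyme, and the summed level of leukocyte markers rose with wounding in EpdSC. The summed level of 8 leukocyte and macrophage markers was 3811 and 3031 CPM in wounded EpdSC, against 33.6 and 23.2 CPM in EpdSC. In the wounded HFSC lineage the sum was 38.2 and 32.4 CPM, against 41.6 and 106 CPM in HFSC, and of the 8 markers 2 were called higher and 2 lower. None of the 8 markers was at 0 in any library, and their part in the *Hmox1* levels was not tested. Fibroblast markers summed to 1440 and 1668 CPM in wounded EpdSC, against 84.9 and 79.2 CPM in EpdSC, and to 539 and 647 CPM in the wounded HFSC lineage, against 381 and 269 CPM in HFSC, and their part was not tested. In wounded EpdSC 3 of 4 endothelial and 4 of 5 melanocyte markers were also higher, and in the wounded HFSC lineage 1 of 4 endothelial markers was higher and 2 lower and 3 of 5 melanocyte markers were lower.

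**Figure D2:**
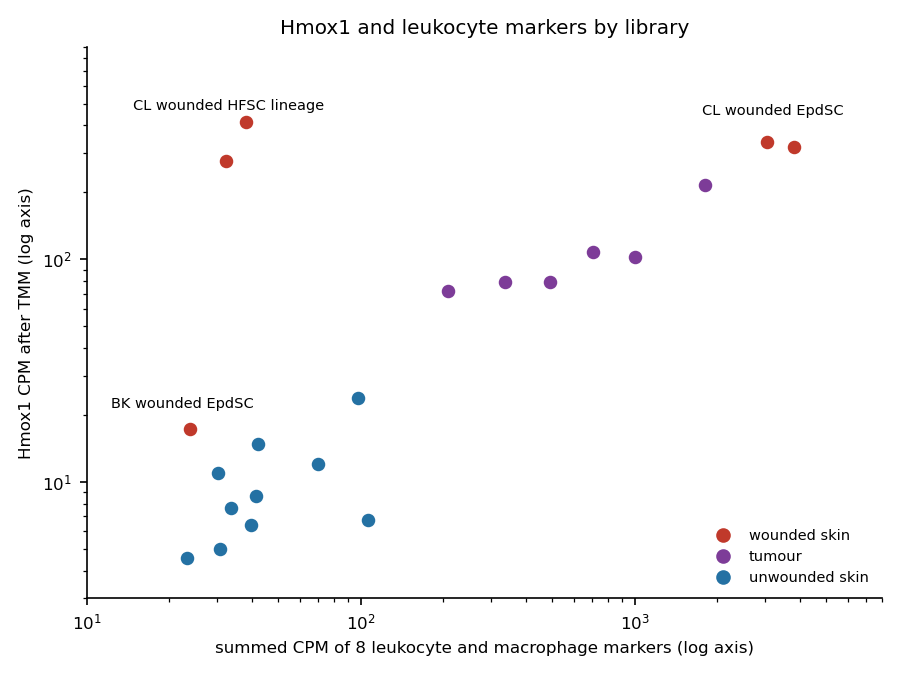
Each point is 1 of the 21 libraries, with the summed CPM of 8 leukocyte and macrophage markers on the x axis and *Hmox1* CPM on the y axis, both on log axes. The 2 CL wounded HFSC lineage libraries sit at 278 and 416 CPM of *Hmox1* with marker sums of 32.4 and 38.2 CPM.

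*Glrx* encodes glutaredoxin, which removes glutathione from protein thiols. It had 179 and 174 CPM in the wounded HFSC lineage, against 6.36 and 6.35 CPM in HFSC, and 172 and 186 CPM in wounded EpdSC, against 5.57 and 4.76 CPM in EpdSC. *Srxn1*, sulfiredoxin, reactivates over-oxidised peroxiredoxins. It had 140 and 118 CPM in the wounded HFSC lineage, against 9.59 and 9.85 CPM in HFSC, and 128 and 125 CPM in wounded EpdSC, against 9.47 and 9.06 CPM in EpdSC. For both genes every wounded library lay more than 10-fold above every unwounded one. The log2 fold changes of *Glrx* were 4.79 ± 0.21 in the HFSC lineage and 5.10 ± 0.21 in EpdSC (edgeR, adjusted p = 1.99e-05 and 1.32e-05), and those of *Srxn1* were 3.72 ± 0.19 and 3.76 ± 0.19 (edgeR, adjusted p = 2.47e-05 and 1.88e-05).

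In wounded EpdSC of CL, 7 of the 10 genes rose and 1 fell relative to EpdSC, against 58.4% of genes called in either direction (30.2% higher and 28.2% lower). All 8 calls passed under each library left out in turn. *Mgst1*, a membrane-bound glutathione transferase that sebaceous gland cells also express, had 168 and 123 CPM in wounded EpdSC, against 6.45 and 10.9 CPM in EpdSC (log2 fold change 4.06 ± 0.32, edgeR adjusted p = 7.02e-05). The summed level of 10 sebaceous markers was 299 and 349 CPM in wounded EpdSC, against 395 and 313 CPM in EpdSC, with 2 of the 10 higher and 3 lower. In the wounded HFSC lineage 1 of the 10 was higher and 4 were lower, and the part of these markers was not tested. There *Mgst1* had 224 and 170 CPM, against 68.3 and 60.3 CPM in HFSC (1.60 ± 0.29, edgeR adjusted p = 0.00325). The wounded libraries were all above the unwounded ones.

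*Nqo1*, a quinone reductase and a much-used readout of Nrf2, had 74.7 and 63.5 CPM in wounded EpdSC, against 14.4 and 17.2 CPM in EpdSC (2.12 ± 0.20, edgeR adjusted p = 1.49e-04). In the wounded HFSC lineage it had 97.1 and 83.4 CPM, against 60.6 and 51.1 CPM in HFSC (0.68 ± 0.19, edgeR adjusted p = 0.0221). That call in the HFSC lineage was lost without either HFSC library (adjusted p = 0.0529 and 0.118) and without either wounded HFSC lineage library (0.144 and 0.0562).

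*Gclc* and *Gclm* encode the catalytic and the modifier subunit of glutamate-cysteine ligase, the rate-limiting step of glutathione synthesis. *Gclm* had 34.3 and 35.8 CPM in wounded EpdSC, against 11.1 and 8.61 CPM in EpdSC (1.81 ± 0.22, edgeR adjusted p = 3.75e-04). It had 58.1 and 45.7 CPM in the wounded HFSC lineage, against 33.7 and 34.0 CPM in HFSC (0.61 ± 0.21, edgeR adjusted p = 0.0429), a call lost without any one of the HFSC, EpdSC or wounded HFSC lineage libraries (adjusted p = 0.0577 to 0.258), without the filter on low counts (0.0616) and with the replicate block (0.0562). *Gclc* had 75.8 and 69.1 CPM in the wounded HFSC lineage, against 65.6 and 40.0 CPM in HFSC (0.45 ± 0.32, edgeR adjusted p = 0.28). It had 27.0 and 47.5 CPM in wounded EpdSC, against 41.6 and 43.9 CPM in EpdSC, where the groups overlapped. The modifier subunit thus passed in both lineages and the catalytic subunit in neither, a contrast between genes that was not itself tested.

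*Gstm1*, a mu-class glutathione transferase, and *Txnrd1*, the cytosolic thioredoxin reductase, went the other way. *Gstm1* had 21.3 and 13.2 CPM in the wounded HFSC lineage, against 104 and 131 CPM in HFSC (-2.78 ± 0.36, edgeR adjusted p = 7.71e-04), and 26.1 and 13.2 CPM in wounded EpdSC, against 30.2 and 33.0 CPM in EpdSC (-0.71 ± 0.35, edgeR adjusted p = 0.113). Without the first wounded EpdSC library the EpdSC difference was -1.24 with an adjusted p of 0.0168. Mu-class genes resemble each other, and the authors' counting could have split reads between *Gstm1* and its relatives, so its level is less certain. *Txnrd1* had 19.7 and 18.5 CPM in the wounded HFSC lineage, against 39.9 and 58.5 CPM in HFSC (-1.38 ± 0.28, edgeR adjusted p = 0.00524). It had 16.4 and 24.8 CPM in wounded EpdSC, against 97.2 and 104 CPM in EpdSC (-2.30 ± 0.28, edgeR adjusted p = 4.49e-04), so this target of Nrf2 was lower in all 4 wounded libraries than in all 4 unwounded ones.

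**Figure D3:**
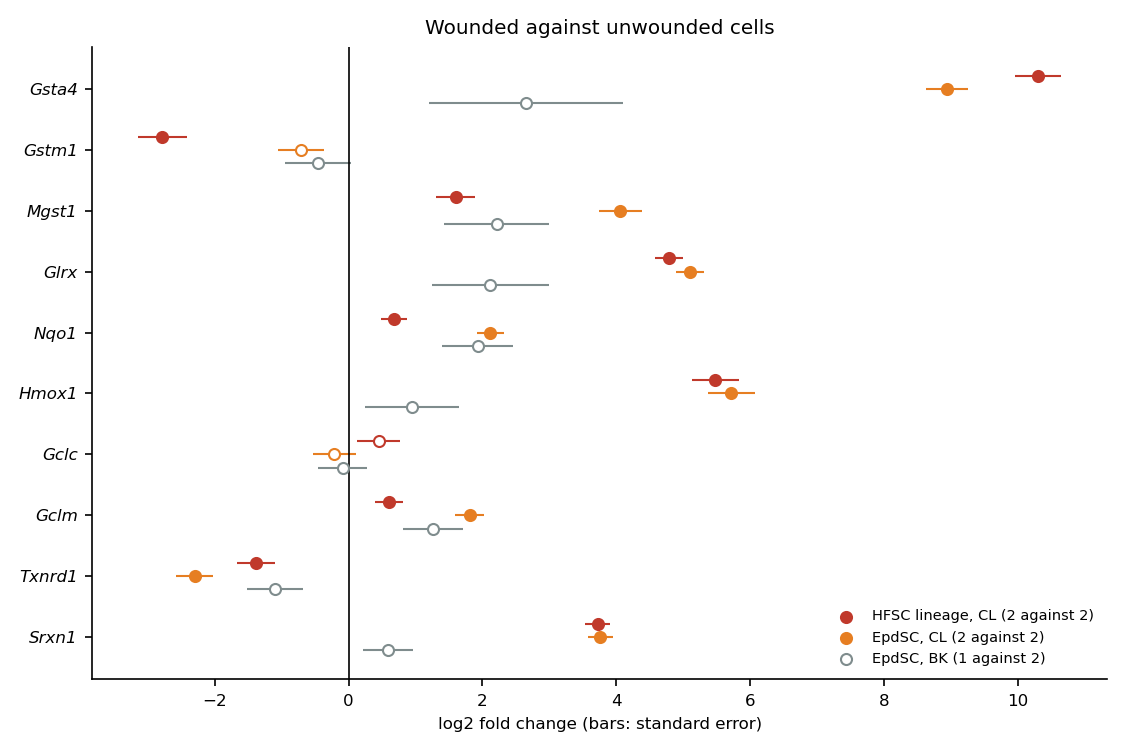
Log2 fold changes of wounded against unwounded cells, with the standard error as bars, for the HFSC lineage and EpdSC of CL and the EpdSC of BK. Filled points passed an adjusted p of 0.05 and open points did not. *Gsta4*, *Hmox1*, *Glrx* and *Srxn1* lie between 3.72 and 10.30 in both CL lineages.

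Between the wounded HFSC lineage and wounded EpdSC none of the 10 genes was called, against 19.2% of genes (6.8% higher and 12.4% lower). Unadjusted p-values were under 0.05 for 2 of the 10, beside 6861 of all 14831 genes. DESeq2 called 1 of the 10, *Gclc* (0.88, adjusted p = 0.0297). *Gclc* had 75.8 and 69.1 CPM in the wounded HFSC lineage and 27.0 and 47.5 CPM in wounded EpdSC (0.95 ± 0.32, edgeR adjusted p = 0.0641, and 1.45 with an adjusted p of 0.00699 without the second wounded EpdSC library). The differences of *Gsta4* (-0.02 ± 0.22), *Glrx* (-0.02 ± 0.18), *Srxn1* (0.02 ± 0.17) and *Hmox1* (0.07 ± 0.28) were smaller than their standard errors. The wound responses of the lineages, each against its own unwounded cells, differed for 4 of the 10 genes, against 15.8% of genes (5.31% with a higher and 10.5% with a lower response in the HFSC lineage). The response of the HFSC lineage was lower for *Mgst1* (-2.46 ± 0.41, edgeR adjusted p = 0.008), *Gstm1* (-2.08 ± 0.49, 0.0294), *Nqo1* (-1.43 ± 0.28, 0.0138) and *Gclm* (-1.2 ± 0.29, 0.0331). For *Gstm1* this was a deeper fall, with -2.78 in the HFSC lineage and -0.71 in EpdSC. *Mgst1*, *Nqo1* and *Gclm* rose less in the HFSC lineage. *Mgst1* passed with each library left out in turn. Of the others, *Gclm* was lost without either HFSC, either EpdSC or either wounded HFSC lineage library (adjusted p = 0.0758 to 0.153), *Gstm1* without either HFSC, either EpdSC or the second wounded HFSC lineage library (0.0547 to 0.129), and *Nqo1* without the first HFSC, either EpdSC or either wounded HFSC lineage library (0.0524 to 0.0947). Without the second wounded EpdSC library more of the 10 genes were called, and the share of all genes called was not computed there. These comparisons share the CL libraries and are not independent of each other.

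The lineages differed before wounding. In CL 4 of the 10 genes were higher and 1 lower in HFSC than in EpdSC, against 10.8% of genes called (7.19% higher and 3.63% lower). *Mgst1* had 68.3 and 60.3 CPM in HFSC, against 6.45 and 10.9 CPM in EpdSC (2.89 ± 0.31, edgeR adjusted p = 0.00118). *Gstm1* (104 and 131 CPM in HFSC, against 30.2 and 33.0 CPM in EpdSC), *Nqo1* (60.6 and 51.1, against 14.4 and 17.2 CPM) and *Gclm* (33.7 and 34.0, against 11.1 and 8.61 CPM) were also higher, by 1.89 ± 0.35, 1.82 ± 0.20 and 1.76 ± 0.21 on the log2 scale (edgeR, adjusted p = 0.0129, 0.00133 and 0.00203). *Gsta4* was lower (-1.38 ± 0.35, edgeR adjusted p = 0.044) at 7 to 22 counts a library. *Gsta4* lost its call without either HFSC library, without the first EpdSC library and without either wounded HFSC lineage library (adjusted p = 0.0905 to 0.625), and with only the HFSC and EpdSC libraries in the fit (0.285), and *Gstm1* without the second HFSC or either EpdSC library (0.0697 to 0.138). Markers of other cells moved with this comparison. Of 10 sebaceous markers 4 were higher and 1 lower in HFSC (median 2.29 on the log2 scale), while their sum was 257 and 285 CPM in HFSC, against 395 and 313 CPM in EpdSC, where 1 and 4 of them were at 0. Of 8 fibroblast markers 3 were higher (median 2.05), with sums of 381 and 269 CPM in HFSC, against 84.9 and 79.2 CPM in EpdSC. Of 5 melanocyte markers 2 were higher (median 3.31), with sums of 5.92 and 10.7 CPM in HFSC, against 5.11 and 7.20 CPM in EpdSC. Of 13 dissociation genes 2 were higher and none lower, but their median was -0.39, with sums of 26670 and 45050 CPM in HFSC, against 50970 and 46550 CPM in EpdSC. Their part in the differences between the lineages was not tested. *Txnrd1*, with 39.9 and 58.5 CPM in HFSC against 97.2 and 104 CPM in EpdSC, did not pass (-1.04 ± 0.27, edgeR adjusted p = 0.05), and passed with RLE size factors (0.0416), with DESeq2 (0.00803), without the filter (0.026) and without either wounded EpdSC library (0.0183 and 0.0133).

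The same comparison in BK called 1 gene, *Txnrd1*, against 14.4% of genes (7.91% higher and 6.47% lower). *Txnrd1* had 21.2 and 27.3 CPM in HFSC, against 56.7 and 78.0 CPM in EpdSC (-1.48 ± 0.33, edgeR adjusted p = 0.0334), and its call was lost without either HFSC library (0.432 and 0.209). *Nqo1* had 68 and 72.9 CPM in HFSC, against 34.5 and 13.9 CPM in EpdSC (1.53 ± 0.46, edgeR adjusted p = 0.0815), with no overlap. *Mgst1* had 86.4 and 80.5 CPM in HFSC, against 46.6 and 9.69 CPM in EpdSC (1.56 ± 0.68, edgeR adjusted p = 0.188). Without the first or the second BK EpdSC library, *Nqo1* was at 2.31 and 1.03 and *Mgst1* at 3.08 and 0.85 on the log2 scale. More of the 10 genes were called in these fits, for which the share of all genes was not computed. A test of the difference of this comparison between BK and CL called none of the 10, against 2.32% of genes (0.335% higher and 1.99% lower). DESeq2 called 0 of the 10, and 1 stood at an unadjusted p under 0.05, beside 1876 of all 14345 genes. Some of the 10 were called without the second BK EpdSC library, where the share of all genes was not computed. That test does not show that the sets were alike. Over CL and BK together, with the set as a block, *Gstm1* (1.37 ± 0.31, edgeR adjusted p = 0.0119), *Mgst1* (2.22 ± 0.50, 0.0124), *Nqo1* (1.68 ± 0.28, 0.00253) and *Gclm* (1.33 ± 0.28, 0.00952) were higher and *Txnrd1* lower (-1.24 ± 0.21, 0.00315) in HFSC, against 23.6% of genes called (13.8% higher and 9.82% lower). These 5 calls passed with each library left out in turn.

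Markers of other cells moved with the comparison in BK and over both sets too. Over CL and BK 7 of 10 sebaceous markers (median 1.90), 4 of 6 fibroblast markers (2.79) and 3 of 4 melanocyte markers (4.58) were higher in HFSC. In BK alone none of the sebaceous markers was called (5 at an unadjusted p under 0.05, beside 4404 of all 14663 genes). Their sums were 391.8 and 366 CPM in HFSC, against 374 and 309.9 CPM in EpdSC. Fibroblast markers summed to 1376 and 1645 CPM in HFSC of BK, against 309 and 168 CPM in EpdSC. Over CL and BK the largest part was *Sparc*, with means of 853 CPM in HFSC and 158 CPM in EpdSC. *Col1a2* had 48.1 and 0.701 CPM and *Col1a1* 14.9 and 0.73 CPM. The other fibroblast markers, *Col3a1*, *Pdgfra*, *Dcn*, *Lum* and *Dpt*, averaged 0.97 CPM or less in both lineages. Dissociation genes were lower for 10 of 13 in HFSC of BK, with sums of 7041 and 5192 CPM, against 30330 and 35840 CPM in EpdSC, and over both sets 2 were higher and 5 lower. The part of these genes was not tested.

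Of the other pathway genes in CL, where 10.8% of genes were called (7.19% higher and 3.63% lower), 1 of 9 regulators was lower in HFSC. Of 22 other Nrf2 targets 5 were higher and 3 lower, with *Gpx2* at 3.24 and *Aldh3a1* at 2.20 on the log2 scale among the higher. Of 19 other glutathione transferases 3 were higher and 1 lower, and of 17 glutathione genes 1 was higher and 1 lower. Of 15 superoxide to thioredoxin genes 6 were higher.

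The single wounded EpdSC library of BK did not resemble those of CL in all genes. *Hmox1* had 17.3 CPM in wounded EpdSC of BK, against 12.1 and 5.01 CPM in EpdSC of BK, and *Srxn1* had 42.3 CPM, against 32.4 and 21.5 CPM. *Gsta4* had 438 CPM in wounded EpdSC of BK, close to the CL wounded level, against 123 and 11.4 CPM in the EpdSC libraries of BK, which were far above those of CL. None of the 10 genes was called, against 7.97% of genes, 1.77% higher and 6.21% lower. DESeq2 called 3 of them, *Mgst1*, *Glrx* and *Nqo1*. At an unadjusted p under 0.05 stood 4 of the 10, beside 5050 of all 14663 genes. Some were called without a BK HFSC or EpdSC library, and the most without the first BK EpdSC library, the one with the higher *Gsta4*. For these fits the share of all genes called was not computed. The wound response of EpdSC was larger in CL than in BK for *Gsta4* (difference 6.44 ± 1.57, edgeR adjusted p = 0.0308), *Hmox1* (4.92 ± 0.80, 0.00889) and *Srxn1* (3.32 ± 0.54, 0.00885), against 16.5% of genes called (11.6% higher and 4.96% lower) and a median over all genes of 0.34. The call of *Gsta4* was lost without the first CL wounded EpdSC library (difference 6.48). More of the 10 genes were called without the second BK EpdSC library, where the share of all genes was not computed. Leukocyte markers summed to 23.9 CPM in the wounded library of BK, against 69.6 and 30.8 CPM in its EpdSC. Dissociation genes summed to 12960 CPM in the wounded library of BK, against 30330 and 35840 CPM in its EpdSC. In CL minus BK the responses of all 8 leukocyte markers and of 5 of 8 fibroblast markers were higher, and those of 11 of 13 dissociation genes were lower and of 2 higher. Their part in the gap between CL and BK was not tested.

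Other genes of the pathway were counted from 5 lists, on which some genes stand more than once. Of all genes 46.1% were called in the wounded HFSC lineage (21.4% higher, 24.7% lower, median -0.10 on the log2 scale) and 58.4% in wounded EpdSC (30.2% higher, 28.2% lower, median -0.04). Of 9 regulators of Nrf2, 1 rose and 3 fell in the wounded HFSC lineage. *Nfe2l2* itself had a mean of 314 CPM in the wounded HFSC lineage, against 98.9 CPM in HFSC (1.66 ± 0.38, edgeR adjusted p = 0.00956). The small Maf genes *Maff* (8.49 against 65.5 CPM, -2.96 ± 0.43, edgeR adjusted p = 0.00125) and *Mafk* (31.5 against 150 CPM, -2.27 ± 0.20, 1.42e-04) fell, as did *Sqstm1*, whose product binds Keap1 (-0.60 ± 0.20, 0.0445). In wounded EpdSC 4 of the 9 fell and none rose, *Mafk*, *Maff*, *Mafg* and *Nfe2l1* (-2.90, -1.70, -1.43 and -0.51 on the log2 scale). *Nfe2l2* averaged 161 CPM in wounded EpdSC, against 116 CPM in EpdSC (0.46 ± 0.37, edgeR adjusted p = 0.313), a value given after it was seen. The groups overlapped, with 96.6 and 225 CPM in the wounded EpdSC libraries, against 104 and 128 CPM in EpdSC.

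Of 22 other Nrf2 targets, 11 rose and 4 fell in the wounded HFSC lineage (median 0.59), beside 46.1% of all genes called, and 13 rose and 6 fell in wounded EpdSC (1.53), beside 58.4%. *Slc7a11*, the cystine importer, rose by 4.28 ± 0.63 in the HFSC lineage (edgeR, adjusted p = 0.00131) and by 4.06 ± 0.66 in EpdSC (0.00148). *Gpx2*, a glutathione peroxidase, rose by 3.68 ± 0.50 in the HFSC lineage (edgeR, adjusted p = 9.24e-04) and by 6.86 ± 0.63 in EpdSC (1.32e-04). *Aldh3a1*, an aldehyde dehydrogenase, went the other way and had 11.9 CPM in the wounded HFSC lineage, against 541 CPM in HFSC (-5.52 ± 0.43, edgeR adjusted p = 8.94e-05), and 5.17 CPM in wounded EpdSC, against 117 CPM in EpdSC (-4.52 ± 0.42, 1.34e-04).

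Of the other glutathione transferases 19 of 20 were tested, with 5 higher and 5 lower in the wounded HFSC lineage (median -0.38) and 7 higher and 2 lower in wounded EpdSC (0.52). These are 10 of 19 called, near the 46.1% of all genes, and 9 of 19, below the 58.4%. *Gsto1*, of the omega class, had 1780 CPM in the wounded HFSC lineage, against 136 CPM in HFSC, and 2190 CPM in wounded EpdSC, against 140 CPM in EpdSC (3.7 ± 0.21 and 3.95 ± 0.22, edgeR adjusted p = 3.45e-05 and 2.26e-05). *Mgst2*, a membrane-bound relative of *Mgst1*, rose by 4.61 ± 0.35 and 3.33 ± 0.33 in these comparisons (edgeR, adjusted p = 7.55e-05 and 1.66e-04). Of 17 genes of glutathione synthesis and recycling, 6 rose and 1 fell in the wounded HFSC lineage (median 0.66) and 12 rose in wounded EpdSC (1.36), with *Ggct*, the gamma-glutamylcyclotransferase, at 298 CPM in the wounded HFSC lineage, against 15.0 CPM in HFSC (4.31 ± 0.28, edgeR adjusted p = 4.38e-05). Of 15 superoxide, catalase, peroxiredoxin and thioredoxin genes, 7 rose and 3 fell in the wounded HFSC lineage (median 0.65) and 12 rose and 1 fell in wounded EpdSC (1.56). Thioredoxin itself, *Txn1*, rose by 2.71 ± 0.19 and 3.37 ± 0.20 in the comparisons in which its reductase *Txnrd1* fell (edgeR, adjusted p = 6.02e-05 and 2.74e-05). *Txnip*, which binds and inhibits thioredoxin, fell by 3.49 on the log2 scale in the wounded HFSC lineage (edgeR, adjusted p = 0.00202).

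In tumour cells 4 of the 10 genes were higher and 1 lower than in the Tbr skin stem cells, against 44.8% of genes called (22.1% higher and 22.7% lower), with a median log2 fold change of 0.99 over the 10 genes and 0.04 over all genes tested. The libraries of a tumour genotype differed in gate and those of Tbr skin in lineage. These differences entered the spread behind each standard error and p of this comparison. *Gsta4* had a lowest value of 221, a median of 1171 and a highest of 2828 CPM in the 6 tumour libraries, against 4.61 and 10.5 CPM in Tbr HFSC and EpdSC (7.05 ± 0.70, edgeR adjusted p = 0.00113). *Hmox1* ran from 71.8 to 216 CPM with a median of 90.9 CPM in tumours, against 23.8 and 10.9 CPM in Tbr skin (2.61 ± 0.52, edgeR adjusted p = 0.0088). *Glrx* ran from 27.2 to 121 CPM with a median of 46.0 CPM in tumours, against 14.6 and 9.16 CPM (2.13 ± 0.51, edgeR adjusted p = 0.017). *Srxn1* ran from 49.9 to 81.1 CPM with a median of 61.1 CPM in tumours, against 30.2 and 23.2 CPM (1.24 ± 0.21, edgeR adjusted p = 0.0056). In these 4 genes every tumour library was above both skin libraries. *Gstm1* ran from 3.25 to 15.2 CPM with a median of 6.23 CPM in tumours, against 49.4 and 26.7 CPM (-2.52 ± 0.35, edgeR adjusted p = 0.00288), with no overlap.

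*Nqo1* ran from 17.9 to 41.3 CPM in tumours and overlapped Tbr skin, with 20.7 and 18.2 CPM (0.59 ± 0.39, edgeR adjusted p = 0.251). *Gclm* ran from 19.8 to 107 CPM, against 28.1 and 9.32 CPM (1.40 ± 0.53, edgeR adjusted p = 0.0715), and passed without the Tbr HFSC library (2.40, 0.0303) and with DESeq2 (0.0144). *Txnrd1* passed without the Tbr EpdSC library (1.57, adjusted p = 0.0134) and *Glrx* was lost without it (1.84, 0.0902). With only the 3 tumour libraries of high integrin alpha 6, *Gsta4* and *Hmox1* were called and *Gstm1* (-2.42, adjusted p = 0.103), *Glrx* (1.51, 0.0676) and *Srxn1* (1.08, 0.0649) were not. Markers of other cells moved with this comparison: 8 fibroblast markers summed to 1485 to 13710 CPM in tumour libraries, against 405 and 164 CPM in Tbr skin, 8 leukocyte and macrophage markers to 209 to 1806 CPM, against 98 and 30.3 CPM, and 5 endothelial markers to 52.1 to 238 CPM, against 1.93 and 1.29 CPM. Of 13 dissociation genes 9 were lower and 1 higher in tumours (median -1.39), with sums of 5253 to 20660 CPM, against 23530 and 30080 CPM in Tbr skin. The sums of 10 sebaceous markers overlapped, with 200 to 1197 CPM in tumours, against 481 and 366 CPM in Tbr skin. None of these genes was at 0 in a tumour library, and their part in the tumour results was not tested.

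Of the other Nrf2 targets 12 of 22 were higher and 1 was lower in tumours, beside 44.8% of all genes called (22.1% higher and 22.7% lower), among them *Slc7a11* (68.2 CPM in tumours, against 0.571 CPM in Tbr skin, 6.37 ± 0.89, edgeR adjusted p = 0.00292), *Gpx2* (5.67 ± 0.95, 0.00517), *Osgin1* (3.51 ± 0.26, 6.31e-04) and glutathione reductase, *Gsr* (3.27 ± 0.37, 0.00158). *Nfe2l2* (1.2 ± 0.24, edgeR adjusted p = 0.00874) and *Sqstm1* (1.35 ± 0.23, 0.00502) were higher, and 3 of the 9 regulators were lower. Among 19 other glutathione transferases 5 were higher and 6 lower. *Gsto1* had 3000 CPM in tumours, against 164 CPM in Tbr skin (4.01 ± 0.39, edgeR adjusted p = 0.00107). Of the glutathione genes 9 of 17 were higher and 1 lower, and of the superoxide to thioredoxin genes 5 of 15 were higher and 1 lower, the last being *Txnip* (-3.65 ± 0.28, edgeR adjusted p = 6.57e-04).

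TbrKO tumours differed from the HRas-bearing tumours (HRas TbrKO and HRas) in 6 of the 10 genes, 2 higher and 4 lower, against 41.8% of genes called (21.2% higher and 20.7% lower). *Gsta4* had 221 and 528 CPM in TbrKO tumours of high and low integrin alpha 6, against 2828 and 1906 CPM in HRas TbrKO and 1353 and 989 CPM in HRas tumours (-2.18 ± 0.49, edgeR adjusted p = 0.0204). *Gclm* had 19.8 and 24.9 CPM in TbrKO tumours, against 107 and 57.3 CPM in HRas TbrKO and 86.1 and 43.9 CPM in HRas tumours (-1.61 ± 0.34, edgeR adjusted p = 0.017). *Gclc* (-0.69 ± 0.19, 0.0339) and *Glrx* (-0.71 ± 0.16, 0.022) were also lower. *Mgst1* had 87.6 and 104 CPM in TbrKO tumours, against 23 and 58.4 CPM in HRas TbrKO and 20.2 and 68.3 CPM in HRas tumours (1.39 ± 0.29, edgeR adjusted p = 0.0172). *Gstm1* had 15.2 and 12.4 CPM in TbrKO tumours, against 3.40 and 8.14 CPM in HRas TbrKO and 3.25 and 4.31 CPM in HRas tumours (1.62 ± 0.33, edgeR adjusted p = 0.0156). In *Gsta4*, *Gclm*, *Gclc*, *Mgst1* and *Gstm1* the TbrKO libraries did not overlap the others, and in *Glrx* they did.

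Without the high HRas TbrKO library, *Gsta4* (adjusted p = 0.0524), *Gclm* (0.0512), *Mgst1* (0.0762) and *Gclc* (0.0866) were not called. Without the high HRas library *Gstm1* (0.0582), *Glrx* (0.122) and *Gclc* (0.123) were not, without the low HRas library *Glrx* (0.0788) and *Gclc* (0.0991), without the high TbrKO library *Gclc* (0.099) and without the low TbrKO library *Glrx* (0.0735). *Nqo1* was higher in TbrKO tumours without the high TbrKO library (0.87, adjusted p = 0.00479) and lower without the low one (-0.99, 0.00419), and *Txnrd1* was lower without the high one (-0.75, 0.015). Dissociation genes were higher for 11 of 13 in TbrKO tumours, with sums of 20660 and 13930 CPM, against 5253 to 8235 CPM in HRas-bearing ones. All 5 endothelial markers were lower, with sums of 52.1 and 53.6 CPM, against 99.0 to 238 CPM. Sebaceous markers were lower for 6 of 10 (median -1.91), with sums of 200 and 274 CPM, against 609 to 1197 CPM. Leukocyte and macrophage markers were lower for 6 of 8 (median -1.65), with sums of 209 and 706 CPM, against 337 to 1806 CPM, and 1 of 8 fibroblast and 1 of 5 melanocyte markers were lower. The part of these genes was not tested. Of the other Nrf2 targets 3 of 22 were higher and 8 lower in TbrKO tumours, beside 41.8% of all genes called, with *Slc7a11* (-2.45 ± 0.52, edgeR adjusted p = 0.0171), *Akr1b8*, an aldo-keto reductase (-1.71 ± 0.15, 0.00208), and *G6pdx*, which supplies NADPH (-1.41 ± 0.30, 0.0181), among the lower and *Aldh3a1* (2.14 ± 0.24, 0.00346) among the higher. Of 19 other glutathione transferases 8 were higher and 4 lower. Between HRas TbrKO and HRas tumours none of the 10 genes was called (0 of 15113 genes in all, 0%, by edgeR, with 1701 genes and 2 of the 10 at an unadjusted p under 0.05, and 0 of the 10 with DESeq2). Without either TbrKO library, which leaves fewer libraries to estimate the spread, some of the 10 were called, and the share of all genes called was not computed there.

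**Figure D4:**
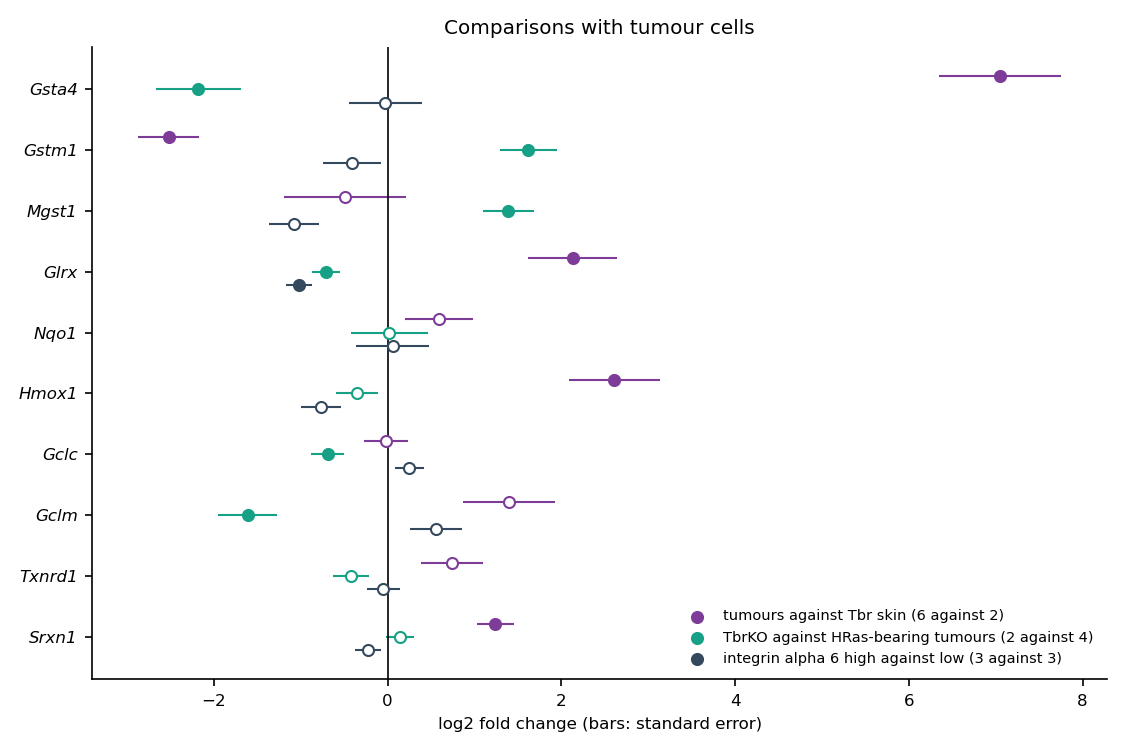
Log2 fold changes, with the standard error as bars, of tumours against Tbr skin stem cells, of TbrKO against HRas-bearing tumours and of high against low integrin alpha 6. Filled points passed an adjusted p of 0.05. *Gsta4* lies at 7.05 in the first and at -2.18 in the second comparison.

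Between tumour cells of high and low integrin alpha 6, *Glrx* alone of the 10 was called, against 3.15% of genes (0.152% higher and 3.00% lower). It had 27.2 CPM in high and 46.4 CPM in low TbrKO cells, 45.5 and 121 CPM in HRas TbrKO and 31.3 and 61.8 CPM in HRas tumours (-1.02 ± 0.15, edgeR adjusted p = 0.0399). The call was lost without any 1 of the 4 HRas-bearing libraries (adjusted p = 0.135 to 0.201), with RLE size factors (0.0578) and without the genotype block (0.614). *Mgst1* was also lower in the high cells of each genotype (-1.08 ± 0.29, edgeR adjusted p = 0.114), as was *Hmox1* (-0.77 ± 0.23, 0.139), and both were called by DESeq2 (0.0104 and 0.039). Fibroblast markers summed to 1485 to 3234 CPM in the high and 6726 to 13710 CPM in the low libraries, and leukocyte markers to 209 to 490 CPM in the high and 706 to 1806 CPM in the low ones. Sebaceous markers summed to 200 CPM in high and 274 CPM in low TbrKO cells. Their sums were 609 and 1091 CPM in HRas TbrKO and 807 and 1197 CPM in HRas tumours. The median of the sebaceous markers was -1.42, with 1 of 10 called lower. At an unadjusted p under 0.05 stood 5 of them, beside 3511 of all 15113 genes. The part of these markers in these differences was not tested.

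The gate effect, high against low, differed between TbrKO and HRas-bearing tumours for 4 of the 10 genes, against 6.26% of genes (3.88% higher and 2.38% lower). *Nqo1* had 17.9 CPM in high and 41.3 CPM in low TbrKO cells, but 40.5 and 26.7 CPM in HRas TbrKO and 30.9 and 19.9 CPM in HRas tumours (difference of the effects -1.91 ± 0.26, edgeR adjusted p = 0.00465). *Gsta4* (-1.85 ± 0.23, 0.00368) and *Gclm* (-1.35 ± 0.23, 0.0119) were likewise lower in the high than in the low TbrKO cells and higher in the high cells of the other genotypes. *Mgst1* differed the other way (1.23 ± 0.25, 0.0253), with its levels closer together in TbrKO. The gate effect was also higher in TbrKO for 2 of 10 sebaceous markers, 1 of 8 fibroblast markers and 2 of 13 dissociation genes and lower for 2 of 8 leukocyte markers, and their part was not tested. The spread in this fit came only from the 2 HRas-bearing genotypes, and the single TbrKO pair was assumed to vary as they did. This left 1 residual degree of freedom, and the test draws the spread of each gene towards that of all genes. The small standard errors are therefore not the spread of these genes alone. Without the TbrKO high or low library, the gate comparison rests on the HRas-bearing tumours. There *Gsta4* (0.58 and 0.54), *Nqo1* (0.69 and 0.65) and *Gclm* (1.00 and 0.97) stood higher and *Mgst1* (-1.48 and -1.52) and *Hmox1* (-0.84 and -0.88) lower in the high cells. More of the 10 genes were called there than with all tumour libraries, and the share of all genes called was not computed.

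Levels were set against each other over the 21 libraries. *Glrx*, *Hmox1* and *Srxn1* had a Pearson correlation of 0.93 with each other on log2(CPM + 1), and *Gsta4* had 0.81 to 0.86 with each of them and -0.83 with *Gstm1*. *Nqo1* had 0.73 with *Mgst1* and -0.81 with *Txnrd1*, and *Gclc* had no correlation with the others above 0.56. These values are descriptions over libraries that share sets, groups and tissue. Among all genes with a mean of at least 5 CPM, the 2 most like *Gsta4* were *Procr* (0.98) and *Rab31* (0.977), those most like *Srxn1* the wound keratin *Krt6b* (0.974) and *Sprr1b* (0.959), and those most like *Glrx* 2610528A11Rik (0.979) and *Fabp5* (0.971). *Hmox1* was most like *Klk13* (0.951) and *Atp6v1b2* (0.949), *Gstm1* like *Apoe* (0.955) and *Fmo5* (0.948), and *Nqo1* like *Cbr1* (0.899) and 2610524H06Rik (0.894). For *Gclm* they were *Dtd2* (0.905) and *Capn2* (0.892), for *Gclc* *Trappc6b* (0.875) and *Hus1* (0.859), and for *Txnrd1* *Tbc1d1* (0.934) and *Sntb2* (0.92).

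By level, *Gsta4* was highest in HRas TbrKO tumours (1906 and 2828 CPM), then in HRas tumours (989 and 1353 CPM), the wounded libraries of all sets (346 to 438 CPM) and TbrKO tumours (221 and 528 CPM), whose values overlapped the wounded ones. BK EpdSC (123 and 11.4 CPM), BK HFSC (1.69 and 14.6 CPM) and Tbr skin (4.61 and 10.5 CPM) followed with overlapping values, and CL EpdSC and HFSC came last. *Glrx*, *Hmox1*, *Srxn1* and *Mgst1* were highest in a CL wounded HFSC lineage or wounded EpdSC library, *Nqo1* likewise with 97.1 CPM there and 95.9 CPM in BK wounded EpdSC, *Gclm* (107 CPM), *Gclc* (103 CPM) and *Txnrd1* (139 CPM) in an HRas TbrKO tumour library, and *Gstm1* (131 CPM) in CL HFSC.

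Chromatin was compared at the starts of the genes. All 7 genes with a RefSeq start had an ATAC peak within 1000 bases of a start in each of the 4 populations. The fold enrichments and pileups are the authors' own, from 1 pooled list per population, so no test of a difference can be made. The lists held 56865 peaks from 11140895 fragments in wound, 54201 from 29579794 in tumour, 55435 from 26825550 in HFSC and 25742 from 13963471 in EpdSC. At *Nqo1* the fold enrichment was 11.7 in wound and 7.54 in tumour, against 6.42 in HFSC and 6.83 in EpdSC. At *Srxn1*, which was above 100 CPM in the wounded CL libraries and below 10 CPM in the unwounded CL ones, the peak at the start had a fold enrichment of 9.39 in wound and 10.9 in tumour, against 11.7 in HFSC and 8.79 in EpdSC. The peak was thus in the lists of unwounded cells too. It covers the AP-1 matches printed above. *Glrx* had 10.5 in wound and 10.02 in tumour, against 12.4 in HFSC and 12.6 in EpdSC. *Mgst1* had the weakest peaks, with 4.80 in wound and 4.83 in tumour at its first start, against 2.99 in HFSC and 3.61 in EpdSC. The printed windows overlap a peak in every population, except that of *Mgst1* in HFSC, where the peak began 125 bases past the start. The genes with the response element core did not move alike in wounded cells, where *Gclm* and *Mgst1* rose and *Txnrd1* fell.

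*Gsta4* (chr9:78191966-78209349) had peaks within 5000 bases of the gene in 3 of the 4 populations and none in the EpdSC list. A peak past its high-coordinate end, at chr9:78212333-78212906 with a fold enrichment of 8.31 in wound and at chr9:78212329-78212892 with 9.11 in tumour, was not in the HFSC and EpdSC lists. A peak outside the low-coordinate end had a fold enrichment of 11.1 in wound and 8.30 in tumour, against 6.30 in HFSC. A second peak at that end was in tumour (4.04) and HFSC (4.80), and tumour also had peaks of 3.48 and 4.87 inside the gene. *Hmox1* (chr8:75093618-75100593) had a peak at its low-coordinate end in all populations, with a fold enrichment of 8.51 in wound and 11 in tumour, against 10.04 in HFSC and 8.56 in EpdSC. A further *Hmox1* peak, with its summit at -3905 bases from that end in wound (4.18) and at -3938 in tumour (2.65), was not in the other lists. The EpdSC list was the shortest, and the part of its length in these absences was not tested.

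**Figure D5:**
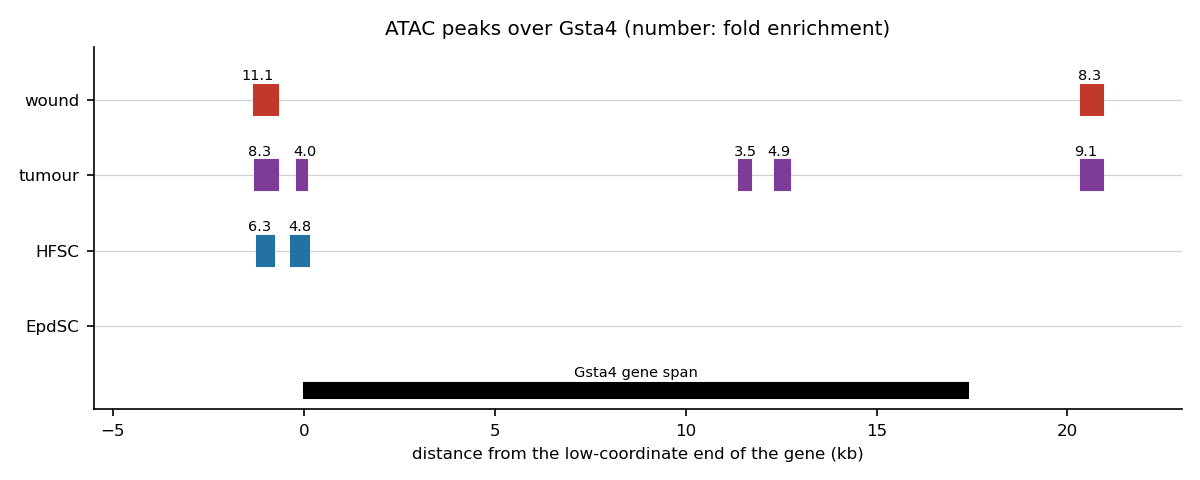
ATAC peaks within 5 kb of *Gsta4* by population, as boxes at their distance in kb from the low-coordinate end of the gene, with the authors' fold enrichment above each. The gene is the black bar, and the box past its far end is in wound (8.31) and tumour (9.11) and in neither HFSC nor EpdSC.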

How the data were processed

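RNA-seq was measured in 21 libraries and ATAC-seq in 4 pooled samples. The gene counts are whole reads per gene symbol as the authors deposited them, without normalization. Reads were aligned to mm10 with tools that include STAR and Bowtie, per the submitters' processing notes, and whether counting used strand was not given there. The peak lists carry a pileup signal and a fold enrichment ratio for each peak as deposited by the authors, from MACS2 2.1.1.20160309 on pooled samples without a control, per the file headers.

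Counts were filtered with filterByExpr, scaled by TMM and tested with edgeR 4.0.16 in R 4.3.3 (quasi-likelihood F test, Benjamini-Hochberg over all genes tested, threshold 0.05). Each standard error is the log2 fold change divided by the root of F. The CL, BK and tumour libraries were fitted apart, except where sets were compared, and comparisons among tumours were blocked by genotype or gate. Tumours against Tbr skin had no term for gate or lineage, so these differences entered the spread. DESeq2 1.42.0, RLE size factors, no filter, replicate blocks, leave-outs and the authors' per-library Ensembl count tables were alternatives. The procedure was tested on simulated data. The depth of 14216472 to 36425082 counts leaves genes under 1 CPM with few counts. The letters A and B in CL were taken as names only, since the labels tie them to no animal or day. Genes named beside the 10 are those of each list with the largest changes that passed (up to 4), or the 2 most correlated ones. The 10 genes and the lists were chosen with earlier results of these data known. The genes most correlated with *Mgst1* are not reported here.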

Additional observations from a re-analysis of the deposited data

Results flagged for a closer look

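Effects that differed between groups were found for 7 of the 10 genes by edgeR's quasi-likelihood test of the difference itself. The share of all genes over these tests together was not computed. By test, 15.8% of all genes were called for the wound responses of the lineages, 16.5% for CL minus BK and 6.26% for the gate effect. The calls below of *Gstm1*, *Nqo1* and *Gclm* in CL, and of *Gsta4* in CL minus BK, were lost without some single libraries. That of *Gclm* was also lost with the per-library Ensembl tables (edgeR, adjusted p = 0.0633). The wound response of the HFSC lineage minus that of EpdSC, both in CL, was -2.46 ± 0.41 for *Mgst1* (adjusted p = 0.008), -2.08 ± 0.49 for *Gstm1* (0.0294), -1.43 ± 0.28 for *Nqo1* (0.0138) and -1.20 ± 0.29 for *Gclm* (0.0331) on the log2 scale. In each of these genes the unwounded HFSC stood above the unwounded EpdSC. The wound response of EpdSC in CL minus that in BK was 6.44 ± 1.57 for *Gsta4* (0.0308), 4.92 ± 0.80 for *Hmox1* (0.00889) and 3.32 ± 0.54 for *Srxn1* (0.00885), with 1 wounded library in BK. The effect of the integrin alpha 6 gate in TbrKO tumours minus that in HRas-bearing ones was -1.91 ± 0.26 for *Nqo1* (0.00465), -1.85 ± 0.23 for *Gsta4* (0.00368), -1.35 ± 0.23 for *Gclm* (0.0119) and 1.23 ± 0.25 for *Mgst1* (0.0253), with 1 library per gate and genotype. No group held enough libraries to look for a library far from its group.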

How the results depend on the processing

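Of 1261 recomputed values of single genes, 1086 kept their direction and side of the threshold, 64 lost and 67 gained a call and 44 changed sign. The number of the 10 genes called changed by over 1.5 times in these cases. Between the wounded HFSC lineage and wounded EpdSC, 0 became 1 with DESeq2, without the filter and with the per-library Ensembl tables. In BK, HFSC against EpdSC went to 3 with DESeq2 and 2 without the filter, and wounded EpdSC against EpdSC to 3 with DESeq2 and 1 without the filter. With the replicate block HFSC against EpdSC in BK called 4 genes, and with the crossed block also 4, against 1 without a block. In CL, the labels do not say that the letters A and B mark a shared animal or day. Same-letter deviations had correlations of -0.408 to 0.133 between 5 pairs of groups and 0.72 between the wounded groups. The replicate block called 5, 8, 8, 0 and 4 genes in the comparisons that called 5, 9, 8, 0 and 4 without it. The gate comparison called 0 with RLE size factors, 3 with DESeq2 and 0 without the genotype block. The EpdSC wound response of CL minus BK called 5 without the filter, and tumours against Tbr skin called 2 with only the high integrin alpha 6 tumours. The share of all genes called was not computed for these alternatives or for the leave-outs below, so their counts have no background to be read against.

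Leaving out 1 library at a time, the number called ran from 3 to 6 for HFSC against EpdSC in CL, 0 to 5 in BK and 5 to 6 over both, 7 to 9 for the wounded HFSC lineage, 8 to 9 for wounded EpdSC in CL and 1 to 7 in BK, 0 to 1 between the wounded lineages, 1 to 7 for the difference of their responses, 2 to 5 for CL minus BK, 0 to 2 for the lineage difference of BK minus CL, 0 to 7 for the gate, 2 to 7 for TbrKO tumours, 0 to 2 for HRas TbrKO against HRas and 5 to 6 for tumours against Tbr skin.

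Sign changes were among differences that were not called in the main fits. Some recomputed values were large, such as -0.99 for *Nqo1* in TbrKO tumours and 1.29 for *Mgst1* in tumours against Tbr skin, and some were called. Between the wounded lineages *Hmox1* was -0.01 with RLE and DESeq2 and *Srxn1* -0.06 with both and -0.01 with only the groups compared. In tumours against Tbr skin *Gclc* was 0.01 without the filter and 0.14 with only the high integrin alpha 6 tumours, and for the gate *Gsta4* was 0.40 without the genotype block. With libraries left out, HFSC against EpdSC in CL ran from -0.10 to 0.59 for *Gclc* and -0.01 to 0.74 for *Hmox1*. In BK it ran from -0.42 to 1.06 for *Hmox1*, -1.58 to 0.68 for *Glrx* and -0.30 to 0.26 for *Srxn1*, and over both sets from -0.47 to 0.48 for *Glrx* and -0.04 to 0.18 for *Srxn1*. Between the wounded lineages it ran from -0.21 to 0.32 for *Hmox1*, -0.07 to 0.12 for *Srxn1*, -0.58 to 0.38 for *Gstm1*, -0.12 to 0.11 for *Gsta4*, -0.08 to 0.06 for *Glrx* and -0.38 to 0.24 for *Txnrd1*. Wounded EpdSC against EpdSC ran from -0.70 to 0.17 for *Gclc* in CL, and in BK from -0.31 to 0.08 for *Gclc* and -0.96 to 0.13 for *Gstm1*. The gate ran from -0.30 to 0.69 for *Nqo1*, -0.29 to 0.18 for *Txnrd1* and -0.38 to 0.58 for *Gsta4*, TbrKO tumours from -0.99 to 0.87 for *Nqo1* and -0.02 to 0.36 for *Srxn1*, and tumours against Tbr skin from -0.33 to 0.39 for *Gclc* and -1.25 to 1.29 for *Mgst1*. The causes were not tested. The difference of the gate effect has no leave-outs, since none leaves residual degrees of freedom, and the BK wound was not run without its only wounded library. Groups held 1 or 2 libraries, and *Gsta4* in unwounded CL rests on 7 to 22 counts a library.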
